A study of Mus musculus with 12 samples.

Results

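Oxidative phosphorylation is the route by which mitochondria turn the electrons of NADH and succinate into ATP. Complex I (NADH dehydrogenase) and complex II (succinate dehydrogenase, also an enzyme of the citric acid cycle) pass electrons to ubiquinone. Complex III hands them to cytochrome c, complex IV (cytochrome c oxidase) to oxygen, and complex V (ATP synthase) uses the resulting proton gradient. Most subunits are encoded in the nucleus, and a few are encoded in mitochondrial DNA. Neurons depend heavily on the pathway for ion pumping, and liver uses it to support gluconeogenesis and urea synthesis.

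The genes described here were all nuclear genes on the array whose symbol named a subunit of complexes I to V or cytochrome c (Nduf, Sdha to Sdhd, Uqcr, Cox4 to Cox8, Atp5 and Cycs). They were chosen by name and not by a cut on measured values, though with earlier results of these data known. They made up 99 of 12422 probe sets and 72 of 8251 genes. Complex I had 38 probe sets for 29 genes, complex II 4 for 4, complex III 7 for 7, complex IV 23 for 15 and complex V 22 for 14. A further 4 probe sets stood for the assembly factors Ndufaf1 and Ndufaf4, and 1 for Cycs. A probe set is a group of short oligonucleotides for a transcript, and 20 of the 72 genes had several. Of the 99, 36 had the name suffix that the maker gives to probes of lower specificity or with matches in related transcripts.

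RNA came from liver, cortex and cerebellum of 1 adult NMR-1 mouse, and was measured on MG_U74Av2 arrays of Affymetrix. The groups called 1X here held 1 array per tissue, made from 5 µg of total RNA by the maker's standard protocol with 1 linear amplification. The groups called 3X held 3 technical replicates per tissue, made from 1 ng by 3 linear amplifications with the RiboAmp HS kit. Each group was thus the same RNA of the same animal, and the starting amount, the kit and the rounds of amplification differed jointly between the procedures, so that their parts cannot be told apart. The p-values measure the spread between arrays of 1 animal. In such bulk RNA, fewer cells of a type and less RNA per cell cannot be told apart.

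Tissue labels were checked with marker lists. At 3X, 9 of 10 hepatocyte genes were higher in liver, 7 of 9 neuronal genes were lower in liver, 4 of 6 cortical genes were higher in cortex and 5 of 6 cerebellar genes were lower in cortex (limma, adjusted p under 0.05 throughout). Kidney genes moved with the cerebellum label, as described with that comparison. Liver replicate 3 of the 3X arrays stood apart from replicates 1 and 2 for many of the genes described here, and results that rest on liver are given with and without it.

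Signals are log2 values, and a difference of 1 is 2-fold. A signal is called dim where its group mean was below the median of all probe sets in that group, which was 3.44 to 3.48. Of the 99 probe sets, 26 were dim in all 6 groups and 49 in none. No ratio of RNA can be read from a difference that involves a dim signal. Signals of different probe sets are not on a common scale, so levels are compared only within a probe set.

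**Figure D1:**
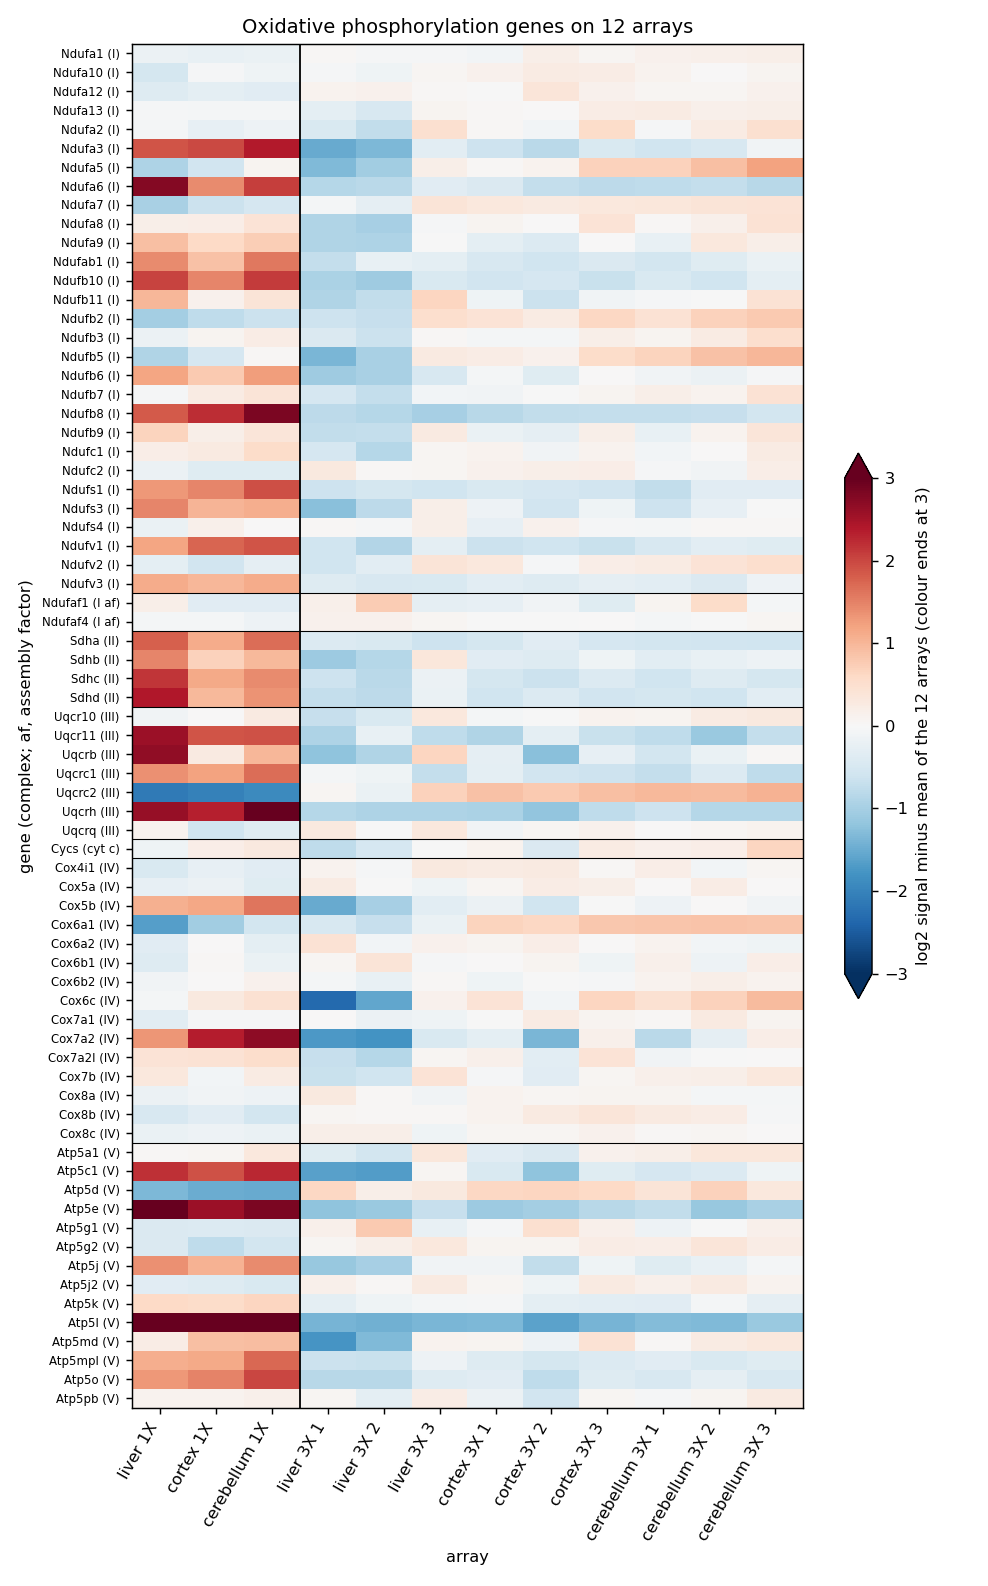
Signal of 1 probe set per gene (the brightest) on the 12 arrays, as log2 signal minus the mean of that probe set over the 12 arrays. Genes are ordered by complex, the vertical line separates the 1X from the 3X arrays, and the colour scale ends at 3, which Atp5l passes on all 1X arrays, Atp5e in liver 1X and Uqcrh in cerebellum 1X. The change from 1X to 3X is the widest pattern, with falls and rises in the same complex, and liver 3X arrays 1 and 2 are low for many genes of complex I.

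The promoters of these genes are known for binding sites of nuclear respiratory factor 1 (NRF-1), of ETS family factors such as the GA-binding protein (also called NRF-2) and of YY1. Windows of 300 bases, 250 before to 50 after the transcription start, were taken from RefSeq (GRCm38.p6) and covered 59 of the 72 genes in 64 windows. All windows of protein-coding genes of the same length, 21263 in number, served as the background. The letters of NRF-1, GCGCA and GCGC with any 1 base between them, were found on either strand in 13 of 64 windows (20.3%, background 6.38%). The ETS core CCGGAAG was found in 16 (25%, background 11.6%), and AAGATGGC of YY1 in 8 (12.5%, background 3.05%). The GC box GGGCGG (46.9%, background 46.2%) and TATAAA (10.9%, background 12.6%) were near the background. A match describes these letters and is not a shown binding site.

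The 250 bases before the start are given for Cox6a1, Ndufa8 and Ndufb6, whose signals were lower in liver without overlap with brain, and for Sdhd of complex II, whose response to amplification differed most between tissues within that complex. All are on the minus strand, at chr5:115348959-115349208, chr2:36049339-36049588, chr4:40279422-40279671 and chr9:50603850-50604099. Each is written 5′ to 3′ towards the start, with the NRF-1 and ETS letters of either strand in capitals. The ETS core reads CTTCCGG where it lies on the other strand.
Cox6a1: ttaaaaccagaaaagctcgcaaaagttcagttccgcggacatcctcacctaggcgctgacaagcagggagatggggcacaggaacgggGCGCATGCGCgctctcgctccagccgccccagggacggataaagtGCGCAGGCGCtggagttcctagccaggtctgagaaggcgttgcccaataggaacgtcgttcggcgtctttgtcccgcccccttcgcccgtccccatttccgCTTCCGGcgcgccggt
Ndufa8: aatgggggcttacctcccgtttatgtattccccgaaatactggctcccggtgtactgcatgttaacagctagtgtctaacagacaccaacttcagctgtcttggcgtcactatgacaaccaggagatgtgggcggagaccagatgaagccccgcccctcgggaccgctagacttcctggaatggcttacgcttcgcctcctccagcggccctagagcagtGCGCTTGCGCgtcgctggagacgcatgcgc
Ndufb6: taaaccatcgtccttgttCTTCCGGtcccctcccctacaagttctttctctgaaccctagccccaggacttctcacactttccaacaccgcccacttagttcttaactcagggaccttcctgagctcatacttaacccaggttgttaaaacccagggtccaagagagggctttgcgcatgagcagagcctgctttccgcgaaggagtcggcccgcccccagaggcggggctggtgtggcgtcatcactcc
Sdhd: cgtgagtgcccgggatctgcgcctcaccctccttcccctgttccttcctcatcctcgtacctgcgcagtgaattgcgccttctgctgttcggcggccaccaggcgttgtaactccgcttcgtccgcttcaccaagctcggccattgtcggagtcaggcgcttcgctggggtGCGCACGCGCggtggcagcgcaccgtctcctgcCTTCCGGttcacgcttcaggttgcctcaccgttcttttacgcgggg
Cox6a1 held 2 NRF-1 matches and 1 ETS match, Ndufa8 held 1 NRF-1 match, Ndufb6 held 1 ETS match and Sdhd held 1 of each. Of the 13 windows of genes with a probe set lower in liver, 4 held NRF-1 (30.8%) and 4 held ETS (30.8%). Of the 51 other windows, 17.6% and 23.5% did, and this was not tested. Ndufa5 was counted with both of its overlapping windows. By gene, NRF-1 was found for 3 of 12 against 9 of 47, and ETS for 4 of 12 against 12 of 47. None of those 13 held the YY1 letters, against 15.7% of the other windows.

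The first comparison asked how liver differed from brain at 3X, with the average of both brain regions subtracted from liver. Of all probe sets, 20.4% were called in either direction. Where these genes differed, they were mostly lower in liver. Lower signals were called (limma, adjusted p under 0.05) for 15 of the 99 probe sets, against 12.3% of all probe sets, and higher signals for 2, against 8.17%. The lower share was near the background. At least 2-fold lower were 5 of the 99, against 3.14% of all, and at least 2-fold higher 0, against 2.32%. The median difference was -0.08, against 0.01 over all probe sets. By gene, with the brightest probe set standing for it, 13 of 72 were lower and 0 higher. The 5 at least 2-fold lower were probe sets of Cox6a1, Cox6c, Ndufa5, Ndufb5 and Atp5md, all with a suffix. Of those without a suffix, 7 of 63 were lower (11.1%, all such probe sets 12.1%), and 0 by at least 2-fold. Of those with a suffix, 8 of 36 were lower (22.2%, all such probe sets 12.6%). By complex, lower calls were made for 9 of 38 probe sets of complex I, 0 of 4 of complex II, 1 of 7 of complex III, 4 of 23 of complex IV and 1 of 22 of complex V.

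Cox6a1 had the smallest adjusted p of the set in this comparison. It encodes the widely expressed form of a small subunit of cytochrome c oxidase. Its signal in the 3 liver arrays was 6.94, 6.73 and 7.22, in cortex 8.07, 8.04 and 8.21 and in cerebellum 8.26, 8.26 and 8.24. All liver arrays lay below all brain arrays. The difference was -1.22 ± 0.10 (SE, 3 against 6 arrays, limma adjusted p = 9.45e-06). The single 1X arrays had the same order, with 5.77 in liver, 6.38 in cortex and 6.87 in cerebellum.

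Other complex IV subunits were lower with more spread. Cox6c, a small nuclear subunit of the enzyme, had 6.67, 7.42 and 9.12 in liver against 8.90 to 9.64 in cortex and 9.45 to 9.95 in cerebellum for its brightest probe set. The third liver array overlapped the brain arrays, and the difference was -1.77 ± 0.42 (limma adjusted p = 0.0129). At 1X the same probe set gave 8.92 in liver and 9.28 and 9.44 in the brain regions. Of the other Cox6c probe sets, one was near 0 at 0.04 ± 0.15 (limma adjusted p = 0.895), and the other, dim in 5 of 6 groups, was higher in liver by 0.33 ± 0.09 (limma adjusted p = 0.0242). The probe sets of Cox6c therefore did not share a direction. Cox5b, a subunit on the matrix side that carries zinc, had 2.94, 3.46 and 4.13 in liver and 3.87 to 4.48 in brain, a difference of -0.78 ± 0.22 (limma adjusted p = 0.029). The second probe set of Cox4i1, dim in all groups, was lower by 0.40 on the log2 scale (-0.40 ± 0.10, limma adjusted p = 0.0189), while the brightest one was at 0.00 ± 0.10 (limma adjusted p = 0.986).

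In complex I, the 9 lower probe sets belonged to accessory subunits of its peripheral and membrane arms and to the core subunit Ndufv2. Ndufa5, an accessory subunit of the peripheral arm, had 7.41, 7.69 and 8.91 in liver, 8.77 to 9.43 in cortex and 9.44 to 9.93 in cerebellum. Its difference was -1.34 ± 0.29 (limma adjusted p = 0.00792). Ndufb5, an accessory subunit of the membrane arm, had 8.48, 8.88 and 10.12 in liver, 9.99 to 10.40 in cortex and 10.54 to 10.84 in cerebellum, a difference of -1.28 ± 0.29 (limma adjusted p = 0.00928). For both genes, liver replicate 3 lay within the cortex range while the other 2 liver arrays lay well below it.

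The complex I genes that were lower without overlap were Ndufa8 and Ndufb6, both accessory subunits. Ndufa8 had 4.85, 4.75 and 5.73 in liver and 5.77 to 6.19 in brain (-0.84 ± 0.20, limma adjusted p = 0.0128). Ndufb6 had 4.64, 4.71 and 5.22 in liver and 5.34 to 5.71 in brain (-0.72 ± 0.13, limma adjusted p = 0.00304). The remaining lower calls were the brightest probe set of Ndufb2 at -0.80, the less bright one of Ndufv2 at -0.65, Ndufb7 at -0.56, Ndufb3 at -0.49 and Ndufa13 at -0.37. Ndufb3 was dim in all groups, and this Ndufv2 probe set in all 3 tissues at 3X. The brighter Ndufv2 probe set was at -0.44 ± 0.18 and missed the threshold (limma adjusted p = 0.121). Another probe set of Ndufb2, dim in 5 of 6 groups, was the second of the 2 higher calls, at 0.30 ± 0.09 (limma adjusted p = 0.0448).

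Outside complexes I and IV, Uqcrc2 and Atp5md were lower in liver. Uqcrc2, a core protein of complex III, had 4.67, 4.42 and 5.31 in liver and 5.42 to 5.67 in brain, without overlap (-0.74 ± 0.16, limma adjusted p = 0.00645). Atp5md, a small membrane subunit of ATP synthase, had 1.07, 1.52 and 2.95 in liver and 2.69 to 3.28 in brain, dim in all 3 tissues at 3X (-1.16 ± 0.33, limma adjusted p = 0.0302). Atp5a1, the alpha subunit of the ATP synthase head, did not pass the test, at -0.23 ± 0.19 (limma adjusted p = 0.466). Without liver replicate 3 it was called lower (-0.50, limma adjusted p = 0.0204). The beta subunit gene Atp5b was not among the 99 probe sets. All 4 subunits of complex II missed the threshold, with differences between -0.29 for Sdhb and 0.02 for Sdha. Cycs, which encodes cytochrome c and was dim in all groups, was at -0.58 ± 0.20 (limma adjusted p = 0.0641). In all, 5 of the 99 were called lower without overlap between liver and brain arrays, against 9.89% of all probe sets. Counted without the test, the arrays did not overlap for the same number with lower values in liver (background 11.3%) and for 2 with higher values (background 9.1%).

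The size of the liver difference rested on which liver arrays were used. Liver replicate 3 was the highest of the 3 liver arrays for all 15 probe sets called lower and for 58 of the 99. It exceeded the mean of replicates 1 and 2 by more than 0.5 in 34 of 99 (34.3%), against 6.75% of all probe sets. The median SD of the 3 liver arrays was 0.25 for these genes and 0.14 for all probe sets. In cortex and cerebellum it was 0.13 and 0.13 for these genes. Within each brain region, replicate 3 was also the highest array for most of the 15, such as Ndufa5, Ndufb5 and Ndufa8. For Cox6a1 this held in cortex only, and for the second Cox4i1 probe set in neither region. Counted against the brain mean, 30 of the 99 were more than 0.5 lower in liver replicate 1 (30.3%, all probe sets 9.41%), 34 in replicate 2 (34.3%, all 9.82%) and 1 in replicate 3 (1.01%, all 7.39%). In the 1X liver array there were 10 (10.1%, all 14.5%). Replicates 1 and 2 thus had more low values in these genes than replicate 3 and the 1X array. In complex I the counts were 16, 19 and 0 of 38 probe sets in replicates 1, 2 and 3 and 6 in the 1X array. The summed signal of 10 hepatocyte markers was 96.85, 94.56 and 102.56 in liver replicates 1, 2 and 3 and 107.83 at 1X. That of 9 neuronal markers was 37.75, 40.25 and 36.21 in the same replicates and 30.85 in the 1X liver array, against 60.63 to 66.07 in the brain arrays at 3X. Among them Snap25, a protein of synaptic vesicle fusion, had 6.15, 7.11 and 5.26 in the 3 liver replicates and 2.99 in the 1X liver array. Control probe sets for transcript ends also moved with this comparison: for Actb at 3X, the signal at the 3′ end minus that at the 5′ end was 0.89 to 1.54 in liver and 2.72 to 3.09 in brain, and for Gapdh -1.66 to -1.28 and -2.58 to -1.92. The part of these markers and controls in the liver difference was not tested.

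**Figure D2:**
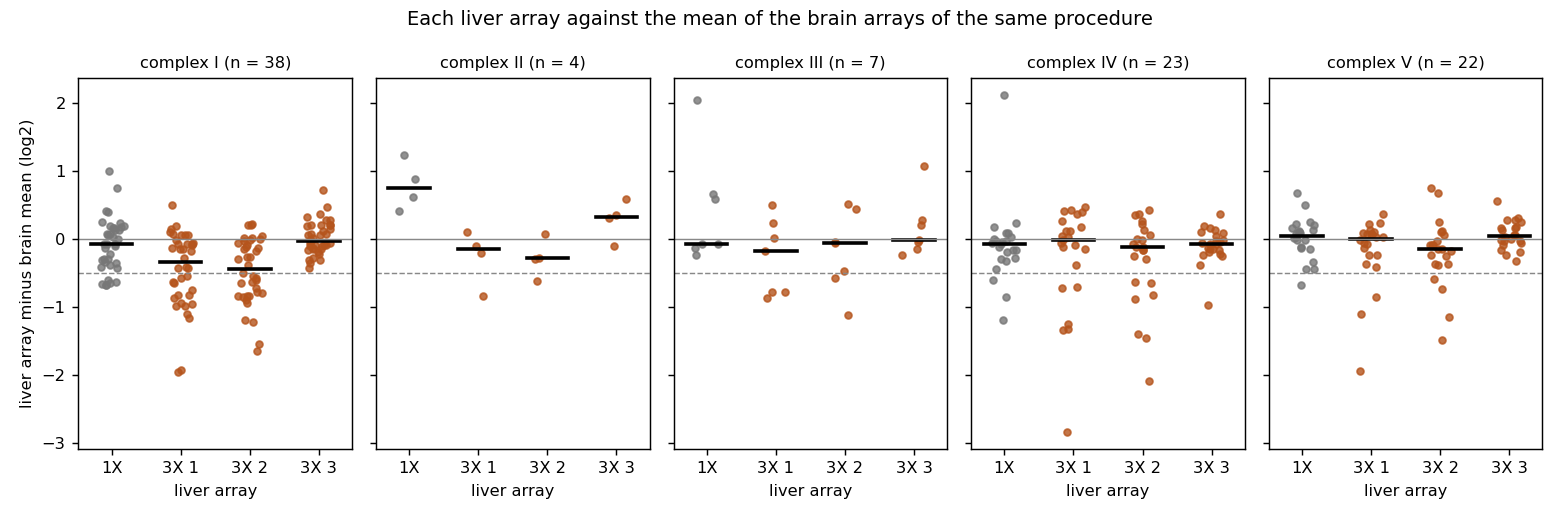
Each dot is a probe set, placed by the signal of 1 liver array minus the mean of the brain arrays of the same procedure (log2), for the 1X array and 3X replicates 1 to 3. The black bar is the median, the dashed line marks -0.5, and dots are spread sideways only for legibility. In complex I the median was -0.34 and -0.44 in replicates 1 and 2, against -0.03 in replicate 3 and -0.07 at 1X.

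Without liver replicate 3, 35 of the 99 were lower in liver, against 13.3% of all probe sets, and 5 were higher. All 15 probe sets named above were among the 35. That array was singled out by its high values in these same genes, so the larger count without it is not separate support for a liver difference. Complex I then had 19 of 38 lower, complex IV 7 of 23, complex V 5 of 22, complex III 2 of 7 and complex II 1 of 4. Cox6a1 was at -1.35, Ndufa5 at -1.79, Ndufb5 at -1.76 and Cox6c at -2.46. Without liver replicate 1 the count of lower calls was 6, against 10.3% of all probe sets. Without replicate 2 it was 5, against 9.39%. Without cortex replicate 1 or 3, or cerebellum replicate 2 or 3, it was 9, against 10.5% to 11.1% of all probe sets. Of the 15 lower calls, 5 held whichever of the 9 arrays was left out: Cox6a1, Ndufb6, Uqcrc2, Ndufa5 and Ndufb5. Of these only the probe set of Ndufb6 had no suffix. The call of Cox6c was lost without liver replicate 2 (-1.61, adjusted p = 0.0588), and those of Ndufa8, Ndufb7 and the second Cox4i1 probe set without liver replicate 1 or 2. Neither higher call held in every such fit.

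The single 1X arrays gave a more even picture. At 1X, 51 of the 99 were lower in liver than in the brain mean and 48 higher, with a median of -0.01 (all probe sets -0.02). More than 0.5 lower were 10 (10.1%, all probe sets 14.5%). Of these, 6 were more than 0.5 lower at 3X as well: Cox7a2, Cox6a1, Ndufb5, Atp5md, Ndufa5 and the second Ndufv2 probe set. More than 0.5 higher in liver at 1X were 11 (11.1%, the same share as of all probe sets), and 0 of them were so at 3X. These included Sdhb, Sdhc and Sdhd of complex II and Uqcrb of complex III. Across the 99 probe sets, which are not independent replicates, liver minus brain at 1X and at 3X correlated with Pearson's r = 0.425 (Spearman's rho = 0.371). Across all probe sets r was 0.790. The 3X differences ran from -1.77 to 0.33 for the 99 and from -7.13 to 8.76 for all. With such unlike ranges, the values of r do not compare how well the procedures match. There is no test of the 1X differences, since 1X had 1 array per tissue.

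Cortex and cerebellum were then compared at 3X. None of the 99 probe sets passed the test (0 higher and 0 lower, limma, smallest adjusted p = 0.545), against 1.06% of all probe sets called in either direction (0.435% higher and 0.628% lower in cortex). At an unadjusted p under 0.05 there were 3 of 99, against 8.6% of all. The differences leaned towards lower values in cortex: 64 of 99 were below 0 (64.6%, all probe sets 47.2%), and at 1X 69 of 99 (69.7%, all 41.4%). The 3X median of these differences was -0.05, and the 1X median -0.11. The arrays did not overlap for 15 probe sets with lower values in cortex, against 8.56% of all, and for 3 with higher values, against 7.87%.

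The most negative difference was that of Ndufa5, with 8.77, 8.84 and 9.43 in cortex against 9.44, 9.63 and 9.93 in cerebellum (-0.65 ± 0.34, limma adjusted p = 0.668). At 1X the difference was -0.65. Ndufb5 was next, at -0.55 ± 0.33 (limma adjusted p = 0.756) and -0.55 at 1X. For both genes the 3 cortex arrays lay below the 3 cerebellum arrays. Atp5a1, the alpha subunit of the ATP synthase head, had 9.26, 9.16 and 9.71 in cortex and 9.78, 9.93 and 9.93 in cerebellum (-0.50 ± 0.22, limma adjusted p = 0.545). The largest positive value was 0.26 ± 0.17 for a Cox6c probe set (limma adjusted p = 0.799). Kidney markers moved with the cerebellum label: 5 of 10 measured (Kap, Miox, Napsa, Slc34a1 and Umod) were lower in cortex, and their summed signal was 42.10 to 43.02 in cerebellum and 34.49 to 35.17 in cortex at 3X, and 44.64 against 32.24 at 1X. Their part in the values of the genes described here was not tested.

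The third comparison set 3X against 1X with tissue in the model. Amplification from 1 ng moved most of these genes and did so in both directions. Of all probe sets, 56.9% were called. Higher signals at 3X were called for 36 of 99 probe sets, against 37.5% of all, and lower signals for 35, against 19.5%. Of the large changes, 29 were lower by at least 2-fold, against 6.23% of all, while 8 were higher by at least 2-fold, against 2.21%. The median difference was -0.02, against 0.12 over all probe sets. By gene, 19 of 72 were higher and 31 lower. For 37 probe sets the 1X array lay below all 3X arrays in every tissue, against 36.9% of all, and for 35 it lay above them, against 15.9%.

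Counts and medians were then taken by complex. All 4 probe sets of complex II were lower by at least 2-fold, with a median of -2.07. Complex III had 4 of 7 lower and 2 higher, with a median of -1.75. Complex I had 15 of 38 lower and 11 higher (median -0.16), complex V 9 of 22 lower and 11 higher (median 0.10) and complex IV 3 of 23 lower and 11 higher (median 0.24). Several probe sets of a gene weighed on the count for complex V, where by gene 8 of 14 were lower and 4 higher with a median of -0.85. For complex IV the same count was 3 of 15 lower and 6 higher, with a median of 0.19.

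**Figure D3:**
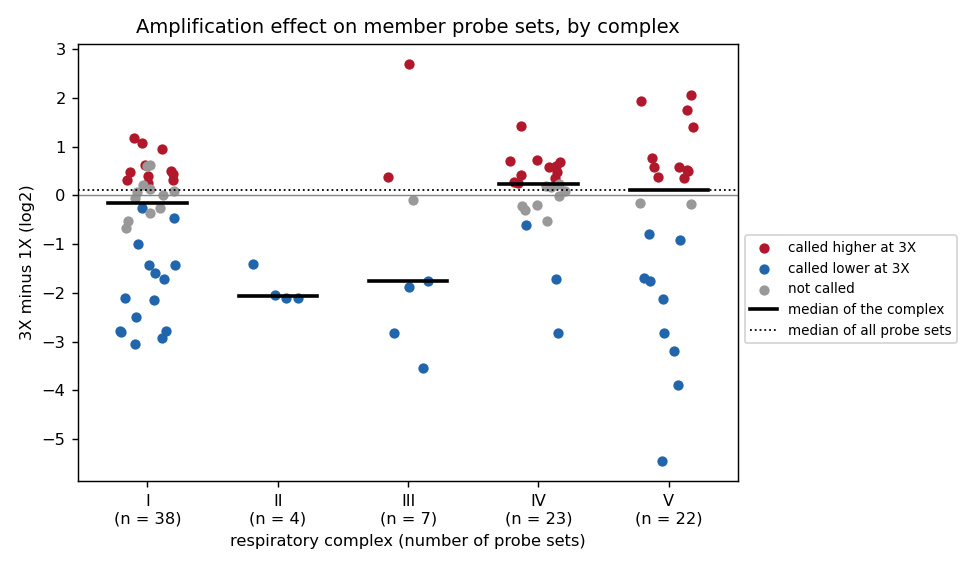
Each dot is a probe set, placed by its complex and by 3X minus 1X (log2, from the model with tissue), and coloured by call (adjusted p under 0.05). Black bars are medians of the complexes, and the dotted line is the median of all probe sets, 0.12. All 4 dots of complex II lie below -1, whereas complex IV has 11 of 23 dots called higher.

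Complex II is made of a flavoprotein (Sdha), an iron-sulfur protein (Sdhb) and the membrane anchors Sdhc and Sdhd. Sdhd fell from 8.06, 6.63 and 7.02 in liver, cortex and cerebellum at 1X to between 4.88 and 5.46 on the 9 3X arrays (-2.10 ± 0.22, 4.28-fold, limma adjusted p = 3.17e-05). Sdhc fell from 6.18, 5.16 and 5.45 to between 3.21 and 3.86 (-2.10 ± 0.18, limma adjusted p = 6.01e-06). Sdha fell from 4.96, 4.28 and 4.83 to between 2.53 and 2.81, where it was dim (-2.04 ± 0.12, limma adjusted p = 4.77e-07). Sdhb fell from 5.97, 5.21 and 5.49 to between 3.41 and 4.84, the highest of these in liver replicate 3 (-1.40 ± 0.27, limma adjusted p = 0.00136). For all 4 genes every 3X array lay below the 1X array of its tissue.

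In complex III, Uqcrh, the hinge protein that helps cytochrome c1 bind cytochrome c, fell from 7.95, 7.68 and 8.35 to between 4.15 and 4.71 (-3.54 ± 0.10, 11.6-fold, limma adjusted p = 1.06e-08). Uqcr11, a small subunit, was at -2.83, the core protein Uqcrc1 at -1.89 and Uqcrb at -1.75, all called lower. Uqcrb lost its call without the 1X liver array (-1.05, adjusted p = 0.0536), and the 1X signal of its probe set was 6.54 in liver against 4.14 and 4.86 in cortex and cerebellum. The other core protein, Uqcrc2, went the opposite way, from dim 1X signals of 2.50, 2.58 and 2.70 to a 3X range of 4.42 to 5.67 (2.70 ± 0.17, limma adjusted p = 6.86e-07). Its only probe set carries a suffix. Uqcrq rose by 0.37 ± 0.10 (limma adjusted p = 0.0101), a call lost without the cortex or cerebellum 1X array.

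In complex I the falls included core subunits of the electron path and accessory subunits alike. Ndufs1, which carries iron-sulfur clusters, fell from 6.56, 6.73 and 7.20 to between 4.51 and 4.92 (-2.10 ± 0.11, limma adjusted p = 2.36e-07). Ndufv1, which binds NADH and flavin, fell from 7.92, 8.50 and 8.62 to between 5.85 and 6.44 (-2.14 ± 0.13, limma adjusted p = 6.21e-07). Ndufs3, a further core subunit, fell by 1.59 on the log2 scale. Among accessory subunits, with the brightest probe set standing for each gene, the largest falls were those of Ndufb8 (-3.05 ± 0.12), Ndufa3 (-2.78 ± 0.22), Ndufa6 (-2.77 ± 0.20) and Ndufb10 (-2.50 ± 0.15). Ndufb8 reached dim signals of 2.54 to 3.00 at 3X. Ndufab1, the mitochondrial acyl carrier protein, fell by 1.72 on the log2 scale. Ndufs4, an accessory subunit known from inherited complex I deficiency, was dim in all groups and at 0.02 ± 0.10 (limma adjusted p = 0.882). Rises were smaller: Ndufb2 by 1.07 ± 0.22 for its brightest probe set and Ndufa7, dim throughout, by 0.95 ± 0.11. Ndufa10 rose by 0.31 ± 0.07 from 10.33, 10.82 and 10.72 to between 10.74 and 11.11. The assembly factors gave 1 call among 4 probe sets, a rise of 0.47 ± 0.08 for a dim probe set of Ndufaf1.

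In complex V, the largest fall of the set was that of Atp5l, subunit g of the membrane part. Its brightest probe set went from 11.30, 11.65 and 11.84 to between 5.90 and 6.39, a 44.0-fold fall in signal (-5.46 ± 0.09, limma adjusted p = 5.63e-11). Further large falls were found in the stalks. Atp5e, the epsilon subunit of the central stalk, fell from 7.03, 6.22 and 6.48 to dim signals of 2.46 to 2.97 (-3.90 ± 0.16). Both probe sets of Atp5c1, the rotating gamma subunit, were called lower, at -3.20 and -2.82. Atp5o and Atp5j, parts of the outer stalk, were called lower at -2.13 and -1.71. Atp5d, the delta subunit of the central stalk, did the reverse in all 5 of its probe sets, which rose by 0.59 to 2.05. Of these, 3 were dim in all groups, those at both ends of this range among them. The brightest, which carries a suffix, went from 5.17, 5.01 and 5.00 to between 6.68 and 7.19 (1.93 ± 0.11, limma adjusted p = 5.04e-07). Subunits of the same central stalk thus had opposite calls. Atp5a1 of the head had 9.62, 9.64 and 9.90 at 1X and 9.04 to 9.94 at 3X and did not pass the test (-0.17 ± 0.17, limma adjusted p = 0.413).

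Complex IV fell in 3 genes. Cox7a2 went from 5.48, 6.51 and 6.84 to between 2.35 and 4.36 (-2.83 ± 0.35, limma adjusted p = 8.98e-05), and Cox5b was at -1.71 ± 0.21. Cox7a2l, which is known for a role in respiratory supercomplexes, was dim throughout and at -0.61 ± 0.20, a call lost without the 1X array of liver or cerebellum. Cox6a1 was the largest rise, from 5.77, 6.38 and 6.87 to between 6.73 and 8.26 (1.43 ± 0.11, limma adjusted p = 3.87e-06). The brightest Cox8b probe set rose by 0.60 ± 0.08, while the other, dim in all groups, was not called (0.093 ± 0.085, limma adjusted p = 0.363). Both Cox4i1 probe sets rose by 0.47 and 0.58 and both Cox5a probe sets by 0.35 and 0.41. The brightest Cox6c probe set was at -0.30 ± 0.43 (limma adjusted p = 0.569). Cycs was at -0.16 ± 0.18 (limma adjusted p = 0.481).

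Probe sets of the same gene did not always move together. Of the 20 genes with several probe sets, 4 had calls in opposite directions (20%), against 15.9% of 2073 genes. They were Atp5l, Ndufb10, Ndufb2 and Ndufv2. The second Atp5l probe set, dim in all groups, rose by 0.38 ± 0.08. The brightest probe set of Ndufb10 was at -2.50 and another at 0.62. Ndufb2 had 3 probe sets that rose, by 0.48 to 1.18, and 1 that fell by 2.92 from 6.20, 6.66 and 6.93 at 1X. A probe set of Ndufv2 fell by 2.81 on the log2 scale and the other rose by 0.50, a call lost in 6 of the 12 fits that left out an array. Among probe sets with a suffix 19 of 36 were higher and 8 lower, and among those without 17 of 63 were higher and 27 lower. Over all probe sets, 48.1% of those with a suffix were higher and 9.9% lower, and 34.4% and 22.3% of those without.

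Large falls were also counted by brightness. Of the 62 with a mean above the median of all probe sets, 25 fell by at least 2-fold (40.3%), against 8.82% of all probe sets that bright. Of the 37 others, 4 did (10.8%, all 3.64%). Control probe sets for the ends of transcripts moved with the procedure. For Actb, the signal at the 3′ end minus that at the 5′ end was -0.93 to -0.52 at 1X and 0.89 to 3.09 at 3X. For Gapdh it was -3.50 to -2.93 at 1X and -2.58 to -1.28 at 3X. The positions of the probes in the transcripts were not used here, and the part of transcript ends in the falls was not tested.

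The dependence of the amplification effect on tissue was tested next, on the assumption that a single 1X array varies like the 3X replicates. It was called for 5 of 99 probe sets, against 10.4% of all. For Sdhd, the liver value of 3X minus 1X was -2.97, that of cortex -1.50 and that of cerebellum -1.83 (F = 13.5, limma adjusted p = 0.0174). For Sdha it was -2.30, -1.58 and -2.25 (F = 10.2, limma adjusted p = 0.0375), and for Ndufa6 -3.41, -2.07 and -2.84 (F = 11.0, limma adjusted p = 0.031). For Ndufb8 the largest fall was in cerebellum and the smallest in liver (-2.72, -2.98 and -3.47, F = 9.44, limma adjusted p = 0.0466). The Cox6c probe set that was bright in liver at 1X, with 4.35 against 2.28 and 2.20, was at 2.50 to 2.74 in liver at 3X (F = 51.4, limma adjusted p = 0.00024). Sdhd and this Cox6c probe set kept the call whichever 3X array was left out. Ndufa6 kept it in 3 of 9 such fits, and Sdha and Ndufb8 in 2 each.

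At 1X, all 4 complex II subunits had their highest signal in liver. The 1X liver array exceeded the brain mean by 0.40 for Sdha, 0.62 for Sdhb, 0.88 for Sdhc and 1.24 for Sdhd. At 3X the corresponding differences were 0.02, -0.29, -0.01 and -0.06, and none was called. Without liver replicate 3, tissue dependence was called for 21 of 99, against 14.6% of all probe sets, and all 4 Sdh genes were among them. That array was singled out by its values in these same genes, so these calls are not separate support for a tissue difference. Leaving out any other 3X array gave 2 to 4 calls.

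**Figure D4:**
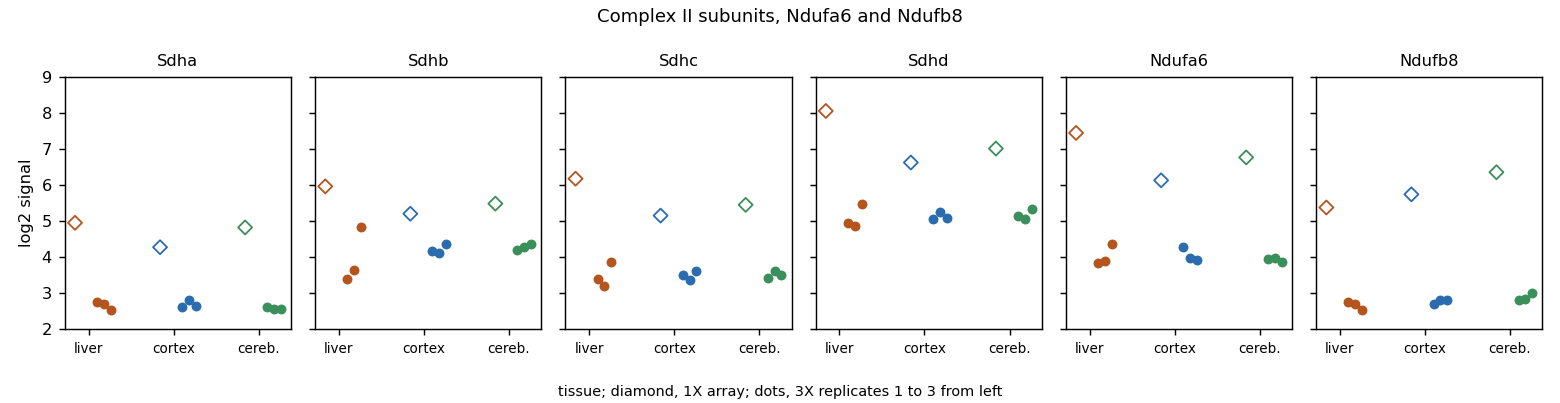
Log2 signal of the 4 complex II subunits, Ndufa6 and Ndufb8 by tissue, with the single 1X array as an open diamond and 3X replicates 1 to 3 as filled dots from left to right. In every tissue the 3X dots lie below the diamond. For complex II the liver diamond is the highest of the 3, with 8.06 for Sdhd. At 3X the tissues overlap for Sdhb, Sdhc and Sdhd, while for Sdha the cortex dots lie just above those of cerebellum.

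Some subunits have paralogs with tissue-restricted use. Cox6a2, Cox7a1 and Cox8b are known as the forms of heart and skeletal muscle, and Cox6b2 and Cox8c as forms of testis. Of these families only Cox6a1 and the second Cox4i1 probe set differed between liver and brain in the test. Cox6a2 had 5.10 to 5.61 in liver and 5.05 to 5.39 in brain at 3X (0.12 ± 0.11, limma adjusted p = 0.524). Cox7a1 had 7.19 to 7.37 in liver and 7.35 to 7.64 in brain (-0.22 ± 0.09, limma adjusted p = 0.105). Its widely expressed counterpart Cox7a2 had 2.43, 2.35 and 3.70 in liver, where replicates 1 and 2 were the lowest of all arrays, and 2.79 to 4.36 in brain (-0.93 ± 0.38, limma adjusted p = 0.121). Without liver replicate 3 it was called, at -1.37, and also without cortex replicate 2, at -1.15. A fit with a replicate block called it as well (-0.93, limma adjusted p = 0.0148). Cox8a, Cox8b, Cox8c, Cox6b1 and Cox6b2 had differences between -0.16 and 0.21 over their 9 probe sets, with none called. Markers of striated muscle (10 measured) had a summed signal of 41.22 to 45.36 on all 12 arrays, with 0 called between tissues.

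ATP synthase subunit c, the proton-carrying ring, is encoded by several genes for the same mature protein. Atp5g1 and Atp5g2 were measured, with 2 probe sets each. The differences between liver and brain lay between -0.07 and 0.14, and between cortex and cerebellum none was called either. All 4 probe sets rose at 3X, by 0.36 to 0.77. For subunit g (Atp5l), the brightest probe set fell and the other, dim in all groups, rose, as described above. Atp5g1 lost its call for the brightest probe set without the 1X array of liver or cortex.

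**Figure D5:**
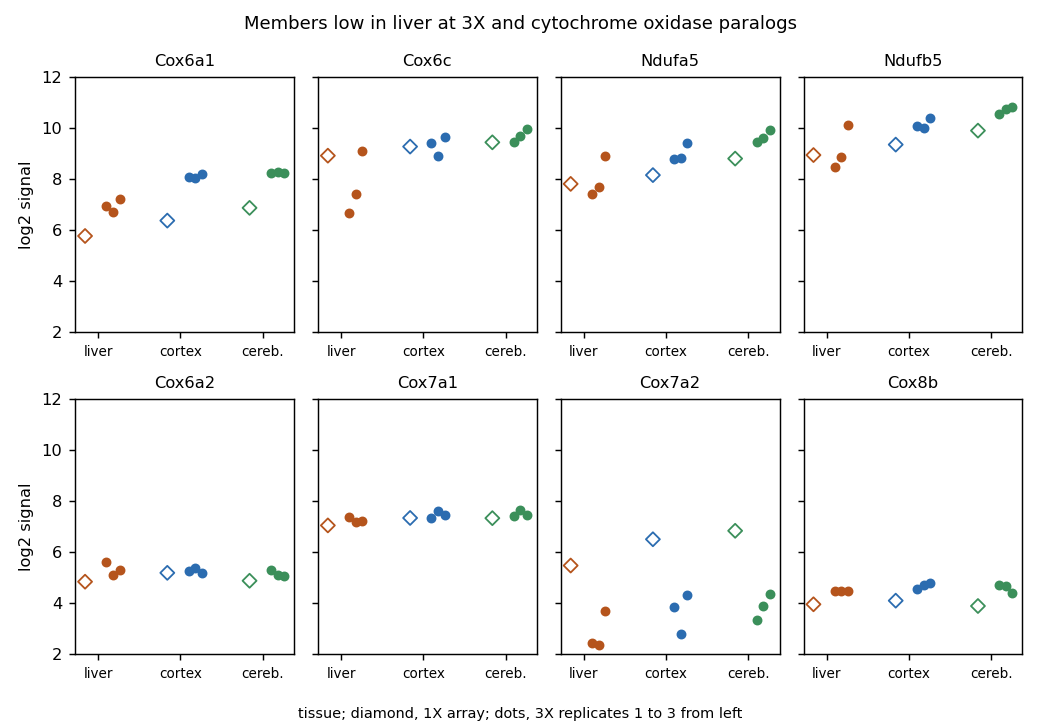
Log2 signal by tissue of 4 genes lower in liver at 3X (top) and of 4 cytochrome oxidase paralogs (bottom), with the 1X array as an open diamond and 3X replicates 1 to 3 as dots from left to right. The probe sets of the 4 genes at the top carry a suffix. Cox6a1 separates liver from brain in both procedures. Cox6c, Ndufa5 and Ndufb5 have liver replicate 3 near the cortex arrays, and Cox7a1 stays between 7.05 and 7.64 throughout.

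Other genes of mitochondrial respiration, from a list of carriers, assembly factors, porins and regulators, were measured for 42 of 77 names. Liver was higher for 5 (11.9%) and lower for 8 (19.0%), with a median of -0.05, against 8.17% and 12.3% of all probe sets. Etfa and Etfb, the electron transfer flavoprotein that feeds electrons of fatty acid oxidation to ubiquinone, were higher by 0.53 ± 0.17 and 0.45 ± 0.09 (limma adjusted p = 0.0489 and 0.00505). The call of Etfa was lost in 8 of the 9 fits that left out an array. Slc25a4, the ADP/ATP carrier of excitable tissues, was at 2.41, 2.45 and 1.89 in liver, where it was dim, and at means of 6.47 and 6.58 in cortex and cerebellum. Gpd2, which feeds glycerol 3-phosphate electrons to ubiquinone and was dim in liver, was called lower at -1.87. Atpif1, the inhibitor of ATP synthase, was called lower at -1.61 and was dim in all 3 tissues at 3X. Cortex and cerebellum differed for 0 of the 42. At 3X, 11 were higher (26.2%) and 15 lower (35.7%) than at 1X (median -0.20), against 37.5% and 19.5% of all probe sets. Gpd2 was at 1.79 and Polrmt, the mitochondrial RNA polymerase, at 1.20. Etfb was at -1.84, the copper chaperone Cox17 at -1.69 and Etfa at -1.63. With each tissue as 1 unit, the falls of Etfb and Etfa were not called (limma adjusted p = 0.0854 and 0.119). In this list 6 genes, Etfa and Etfb among them, had a tissue-dependent effect (14.3%, all probe sets 10.4%).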

How the data were processed

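Each array's deposited table held a log2 signal for every probe set, and the submitters' processing notes name RMA as the method. RMA corrects the background, gives all arrays the same distribution of probe values and summarises each set. Neither its version nor the arrays of a run are stated in the sources used here. The log base was taken from the values, which reached 14.46. RMA makes no detection call. For arrays, their number limits the precision.

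Of 12488 probe sets, 66 controls were left out of the tests. Genes were named from probe sets with 1 symbol in the platform annotation, and all 72 gene identifiers were found in RefSeq GRCm38.p6. The members and lists were chosen with earlier results of these data known. The named genes were, per comparison and complex, up to 3 called in each direction with the largest difference, all genes with opposite calls, listed paralogs, up to 5 genes with the largest F and up to 3 related genes each way. Genes outside this rule were chosen after their values were seen.

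Two-sided tests used limma 3.58.1 in R 4.3.3 (lmFit, eBayes). P-values were adjusted by Benjamini-Hochberg over 12422 probe sets and called under 0.05. Tissues were compared over the 9 3X arrays, which shared 1 spread. Amplification was the 3X coefficient beside tissue over 12 arrays, and a moderated F over 6 group means tested whether it varied by tissue. The procedure was tested on simulated arrays. Deviations of same-numbered 3X arrays correlated between -0.10 and 0.34, and those of differently numbered arrays between -0.36 and 0.25. Pairs numbered 3 correlated at 0.29 to 0.34. The other same-numbered pairs ran from -0.10 to 0.27, so the numbers were not taken to pair arrays in the main fit. Alternatives were other scalings, filters on dim or suffixed probe sets, gene means, eBayes options and a replicate block. Others were a different choice of arrays, tissues as units for amplification and leaving out each array.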

Additional observations from a re-analysis of the deposited data

Results flagged for a closer look

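Tissue dependence of the amplification effect, a test of the difference between tissues itself, singled out 5 probe sets of the 99. They were those of Cox6c (1 of its 3 probe sets, limma adjusted p = 0.00024), Sdhd (0.0174), Ndufa6 (0.031), Sdha (0.0375) and Ndufb8 (0.0466). The test takes each single 1X array to be as variable as a 3X array, so an aberrant 1X array and a tissue difference cannot be told apart. Sdhd, Sdha and Ndufa6 lost the most signal in liver or in liver and cerebellum, and Ndufb8 in cerebellum. Apart from liver replicate 3, described above, outliers within groups were not examined, since groups held 1 or 3 arrays.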

How the results depend on the processing

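The count of 15 lower probe sets in liver was 15 under quantile normalization, median centring and the trend and robust settings. It was 12 above the median level, 17 with all 12 arrays and 7 without suffixed probe sets. When an array was left out it ran from 5 to 35, against 9.39% and 13.3% of all probe sets. Higher calls in liver ran from 0 to 5, with 0 above the median level, without suffixes and by gene mean. With the replicate block, 21 were lower (13.2% of all probe sets) and 1 higher in liver, and 0 differed between cortex and cerebellum. Not every array correlated best with its own number. The 3 pairs of replicates numbered 3 correlated at 0.29 to 0.34. Cox7a2 (-0.93, adjusted p = 0.0148) was among the lower calls with that block. Cortex against cerebellum gave 0 and 0 in every fit that left out an array. For amplification, leaving out an array gave 32 to 39 higher (7 to 8 by at least 2-fold) and 32 to 38 lower (28 to 31 by at least 2-fold). Higher counts were 22 of 62, 17 of 63 and 18 of 72 above the median level, without suffixes and by gene mean. At least 2-fold higher were 5, 1 and 3. Tissue dependence was called for 3 under quantile normalization, 2 above the median level and 2 to 21 when an array was left out. By gene mean, Atp5l (-2.54), Ndufb10 (-0.94) and Ndufv2 (-1.15) were lower at 3X, against the direction of their rising probe sets, and Ndufb2 was not called (-0.046, adjusted p = 0.611). With each tissue as 1 unit, amplification calls were lost for Uqcrq (limma adjusted p = 0.0941), the brighter Ndufv2 probe set (0.0767) and Cox6a2 (0.104). Etfa (0.119) and Etfb (0.0854) lost theirs too. The causes were not tested, except that filters leave fewer probe sets. The scaling moved the median amplification effect of all probe sets between 0.08 and 0.13, so small rises are relative to that shift. Dim signals and 1 animal limit all of these values.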
